A study of Arabidopsis thaliana with 72 samples.

Results

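The chloroplast genome of Arabidopsis thaliana had 133 rows in the table of expression values, and 96 of them reached at least 1 RPKM (reads scaled to the length of the gene and the size of the library) in at least 3 of 72 root libraries. These 96 plastid-encoded genes, out of 33602 rows in all, are described here across 12 genotypes with and without phosphate. Members were 23 of 37 transfer RNA rows, 14 of 15 genes of photosystem II, 5 of 5 of photosystem I, 6 of 6 of the cytochrome b6f complex, 6 of 6 of ATP synthase, 10 of 12 of the NDH complex and the 1 Rubisco gene. They further included 11 of 15 genes of the small and 7 of 11 of the large ribosomal subunit, 4 of 4 RNA polymerase genes and 9 of 13 other protein genes. No ribosomal RNA row was among them. The IDs come without names, so names follow the standard numbering of plastid loci. A number after a point tells rows of the same name apart.

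Roots of 8-day-old seedlings were collected from plates that held phosphate (+Pi) or lacked it (-Pi), set with agar or agarose and 1.0% sucrose. Lines with phr1 were phr1 itself, phr1phl1, phr1phl2, phr1phl3 and phr1phl4, as well as phr1phl1phl2 with 3 mutations and phr1phl1phl2phl3 with 4. Single mutants without phr1 were phl1, phl2, phl3 and phl4, and Col-0 (Col) was the wild type. Each of the 24 groups had 3 libraries, called biological replicates by the submitters. The labels do not say whether these came from separate plates, so the p-values may cover technical spread only. PHR1 and its PHL relatives are transcription factors of the phosphate starvation response. PHR1 stood at 1.62 to 5.86 RPKM in the 42 libraries of lines carrying phr1, below every other library. PHL1 and PHL2 were likewise below every other library in the lines that carry phl1 and phl2, while PHL4 in the phl4 lines overlapped other lines. PHL3 was above Col on -Pi in the libraries labelled phl3 and phr1phl1phl2phl3 and overlapped Col on +Pi, so both names stand for the label alone.

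A plastid descends from a bacterium and keeps a small genome of its own, while most plastid proteins are encoded in the nucleus. The plastid genome holds core subunits of the photosynthetic complexes, parts of a bacterial type of ribosome, transfer RNAs and the 4 core subunits of the plastid-encoded RNA polymerase. That polymerase, with nuclear-encoded sigma factors, transcribes most photosynthesis genes, and phage-type polymerases encoded in the nucleus transcribe housekeeping genes such as rpoB and accD. Root plastids are mostly not green and serve starch storage, nitrogen assimilation and fatty acid synthesis. Plastid transcripts carry no long stable poly(A) tail, and A-rich tails mark them for decay. The libraries were made from messenger RNA held on oligo(dT) beads, so a level here is that of the RNA the beads kept.

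Sequences of 4 genes are shown since beads of this kind bind A runs. Whether runs inside a gene held its RNA was not tested. They are given from start to end of the gene with every run of at least 5 A in capitals, and come from the RefSeq plastid sequence of TAIR10.1. The genes psbM (minus strand) and rpl32 (plus strand) had 2 of the highest levels, trnF (plus strand) stood apart in the -Pi libraries of lines with phr1, and psbF (minus strand) was the 1 row outside the inverted repeat that missed the threshold.
psbM: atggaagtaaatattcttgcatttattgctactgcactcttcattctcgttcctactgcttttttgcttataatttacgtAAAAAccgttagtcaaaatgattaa
rpl32: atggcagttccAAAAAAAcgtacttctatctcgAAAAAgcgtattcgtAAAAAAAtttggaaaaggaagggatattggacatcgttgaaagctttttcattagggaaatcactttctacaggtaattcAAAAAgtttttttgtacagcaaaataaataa
trnF: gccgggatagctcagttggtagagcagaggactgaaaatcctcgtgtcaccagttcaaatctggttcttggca
psbF: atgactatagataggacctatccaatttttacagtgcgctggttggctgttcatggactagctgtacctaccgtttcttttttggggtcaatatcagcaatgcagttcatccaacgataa
The psbM gene holds 1 such run and rpl32 holds 4, the longest of 7 A, while trnF and psbF hold 0. Other members went both ways. Runs of 13 A lay in accD (mean 3.65 RPKM), rpoC2 (2.36 RPKM) and ycf1.2 (151 RPKM), and 1 of 14 A in rpoA (80.5 RPKM). The gene trnL.1 (268 RPKM) had at most 4 A in a row. Among the members with a sequence, 52 of 95 held a run of at least 5 A. Across the 95 members with a sequence, the mean level and the A content of the gene had a Spearman correlation of 0.29, which is a description across genes of the same libraries and not a test.

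Ribosomal and transfer RNA genes filled most of the top ranks of level per gene length. The highest mean over the 72 libraries was that of psbM, a small photosystem II subunit, at 1471.5 RPKM. It alone made up between 3.68% and 50.6% of the plastid RPKM of a library, with a median of 23.7%. Next came rpl16 (509 RPKM), rpl32 (356 RPKM), trnL.1 (268 RPKM), rpl14 (254 RPKM), trnT.2 (243 RPKM), rps3 (205 RPKM), rpl36 (201 RPKM) and ycf1.2 (151 RPKM). These are ribosomal protein and transfer RNA genes, apart from ycf1.2, which encodes a part of the protein import machinery. In contrast, psbA, the D1 protein of the photosystem II reaction centre, averaged 49.9 RPKM, rbcL, the Rubisco large subunit, 16.8 RPKM, psaA 6.35 RPKM and psaB 4.96 RPKM. The last 2 are the reaction centre proteins of photosystem I. In all, 12 members averaged over 100 RPKM and 46 under 10 RPKM, and 42 members were at 1 RPKM or more in every library.

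**Figure D1:**
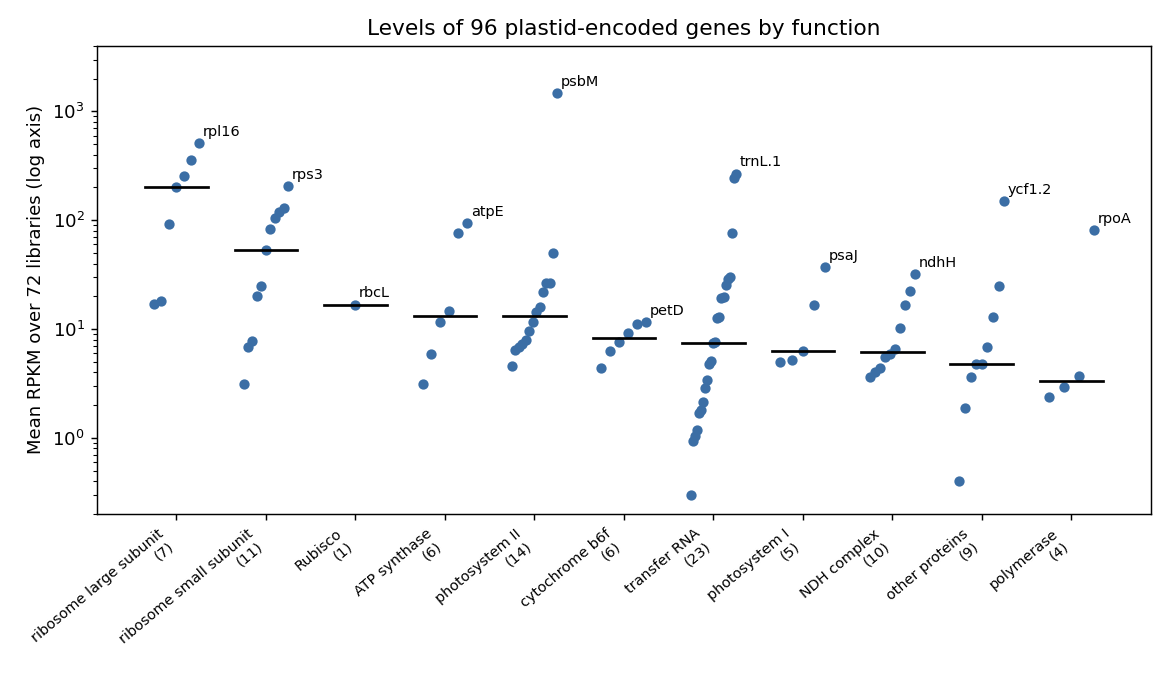
Mean RPKM over 72 libraries of the 96 plastid-encoded genes on a log axis, by function (number of members in parentheses); each point is a gene, the bar is the median of its group and the highest gene of each group is named. The large ribosomal subunit had the highest median level (201 RPKM) and the polymerase the lowest (3.33 RPKM), and psbM stood above all others at 1471.5 RPKM.

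By function, the median member of the large ribosomal subunit was at 201 RPKM and that of the small subunit at 53.1 RPKM. The medians were 13.2 RPKM for ATP synthase, 13.0 RPKM for photosystem II, 8.36 RPKM for the cytochrome b6f complex, 7.52 RPKM for transfer RNAs, 6.35 RPKM for photosystem I, 6.21 RPKM for the NDH complex and 3.33 RPKM for the polymerase. Genes of 1 transcription unit often stood far apart. In the unit psaA-psaB-rps14 the ribosomal gene rps14 was at 129 RPKM, 26.0 times psaB. In the 9 members from rpl23 to rpoA, levels ran from 53.1 to 509 RPKM, and rpoA, at the end of that unit, reached 80.5 RPKM. The other polymerase genes, rpoB, rpoC1 and rpoC2, lie in a unit of their own and were between 2.36 and 3.74 RPKM. The pair psbD-psbC (15.9 to 22 RPKM) and the unit from psbB to petD (6.90 to 11.7 RPKM) were more even.

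At the threshold, ycf1.1 reached 1 RPKM in 3 libraries, trnY in 7, trnQ in 26 and trnL.3 in 27. Just outside, psbF reached at most 0.957 RPKM, with 13 reads over all libraries, although all of its 50-base windows are unique in the reference. The other 36 rows outside lie in the inverted repeat, which is present in a second copy. For 86 of 92 members with a known value, at least 90% of 50-base windows were unique. For ycf1.1 it was 0.203%, for trnY 0% and for trnW 4%, so their reads could be split or lost and their levels are uncertain. Also under 90% were rps19 (72.2%), ycf1.2 (81.5%) and rbcL (85.55%).

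The libraries differed among themselves, in part within groups and in part along with the groups. Depth, recovered from the steps of the RPKM values, ran from 11.1 to 40.5 M reads (median 23), and plastid rows took between 0.150% and 1.63% of the RPKM sum. The median SD within groups, on the log2(RPKM + 1) scale, was 0.59 for the 96 genes, 0.39 for 54 mitochondrial genes and 0.22 for nuclear genes, so the spread of plastid values was the widest of the 3. The slopes of nuclear genes on gene length, GC and adenine content put the libraries into 3 classes of 35, 20 and 17. The plastid share had a median of 1.06% in class 1, 0.320% in class 2 and 1.09% in class 3. In 10 libraries the class differed from that of the other 2 of their group, and 1 of these was Col +Pi replicate 1, with a plastid share of 0.164%, against 1.33% and 0.685% in the other 2. All 3 phl2 and all 3 phl3 libraries were in class 2 on -Pi and in class 3 on +Pi, so for their responses class and phosphate cannot be told apart. The same holds for phr1phl1, phr1phl3, phr1phl1phl2 and phr1phl1phl2phl3, where no class occurred on both media. Col -Pi, phr1 -Pi, phr1phl1 -Pi and phr1phl1phl2 -Pi were in class 1 throughout.

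**Figure D2:**
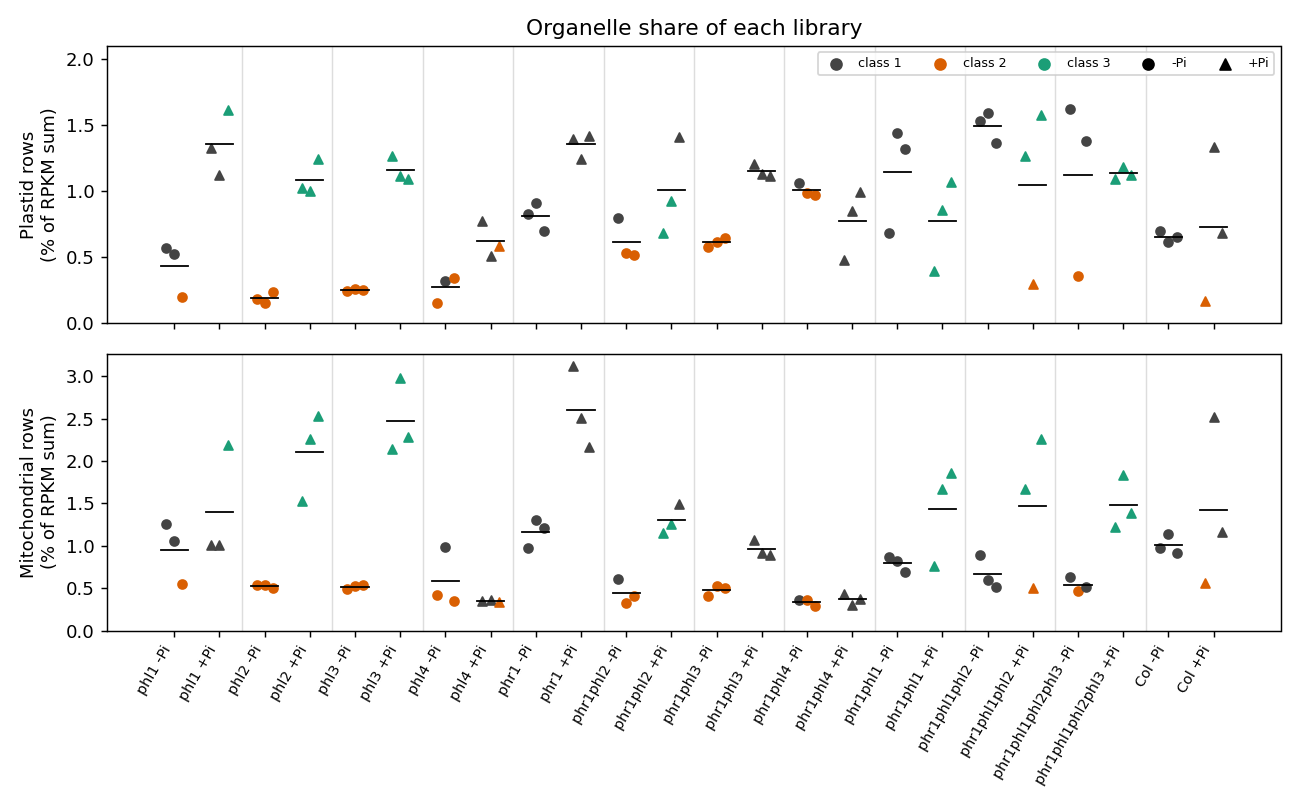
Share of plastid rows (top) and mitochondrial rows (bottom) in the RPKM sum of each of the 72 libraries, in percent, by group with -Pi (circles) left of +Pi (triangles); colour gives the library class and the bar the mean of 3. Class 2 libraries had a median plastid share of 0.320%, against 1.06% in class 1 and 1.09% in class 3, and Col +Pi ran from 0.164% to 1.33%.

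In Col, with all 72 libraries in the fit, a small set of photosynthesis genes was lower on -Pi. No member of the ribosome, the polymerase or the NDH complex was called in that fit. Fold changes are -Pi over +Pi, from limma on log2(RPKM + 1) with Benjamini-Hochberg adjustment over 21206 genes, where calls needed both an adjusted p below 0.05 and a log2 change of 1 or more in either direction. Of the 96 members 2 rose and 12 fell, next to 14.4% of all genes called, so the share of members was that of genes at large, and the median was -0.13. For psbA the values were 4.14, 3.78 and 3.84 RPKM in Col -Pi, against 10.1, 55.0 and 31.7 RPKM in Col +Pi. The 3 -Pi libraries lay close together and below all +Pi libraries, which were themselves spread widely, and the log2 fold change was -2.47 ± 0.46 (SE, adjusted p = 1.4e-05). For rbcL they were 2.79, 4.84 and 1.70 RPKM in Col -Pi and 6.0, 27.0 and 13.6 RPKM in Col +Pi, without overlap, and it fell by 1.86 on the log2 scale (adjusted p = 5.1e-06). For psaB they were 1.18, 0.989 and 0.483 RPKM in Col -Pi and 1.95, 12.1 and 5.70 RPKM in Col +Pi, a fall by 1.78 (adjusted p = 2.1e-06). These 3 calls held whichever 1 of the 72 libraries was left out.

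The other 9 falls in Col included psaA (-1.43 ± 0.29), atpH, the c subunit of ATP synthase (-1.32 ± 0.41), petA, which encodes cytochrome f (-1.14 ± 0.32), and cemA, an envelope membrane protein (-1.07 ± 0.40). Named after their values were seen, psbC, psbB, atpA, petB and psbL were the other 5, between -1.51 and -1.09. None of the 32 members of the NDH complex, the polymerase and the ribosome was called by limma, and none had an unadjusted p under 0.05. Their largest changes were 1.3 ± 0.66 in rps15 and -0.89 ± 0.53 in rps12A. Col +Pi replicate 1 was low in these functions too. Small subunit members summed to 180, 1365 and 725 RPKM in Col +Pi, against 690, 569 and 578 RPKM in Col -Pi. NDH members summed to 17.2, 144 and 64.5 RPKM in Col +Pi, against 82.3, 76.4 and 82.2 RPKM in Col -Pi. Calls by function were not counted without that library. The 2 rises, also picked after seeing them, were in transfer RNA genes with few reads. For trnE, 14, 2 and 2 reads in Col -Pi stood against 0, 0 and 2 in Col +Pi, and trnM had a log2 fold change of 1.16 ± 0.49. Without Col +Pi replicate 1 the count became 0 risen and 28 fallen, and without Col -Pi replicate 3 it was 1 and 7. With only the compared groups in the fit it was 0 and 3, and with class 1 libraries alone 1 and 33.

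Among the single mutants, nearly all called members fell on -Pi. In phr1, 1 member rose and 12 fell on -Pi (11.3% of all genes called), with a median of -0.60. The largest fall was in rbcL, with 5.70, 8.02 and 5.34 RPKM in phr1 -Pi and 37.0, 30.4 and 22.8 RPKM in phr1 +Pi (-2.07 ± 0.33, limma adjusted p = 6.4e-07). The 1 rise was trnF (1.31 ± 0.47). All 6 phr1 libraries were in class 1. The difference between this response and that of Col was called for 0 of 96 members (5.67% of all genes), where 5 had an unadjusted p under 0.05 in limma and limma-voom on recovered reads called 0. In phl1, 0 members rose and 52 fell (12.7%), and without phl1 -Pi replicate 3, a class 2 library, 23 fell. In phl4, 0 rose and 9 fell (11.4%), a share of members below that of all genes, with a median of -0.70, and leaving out 1 library gave 2 falls at the lowest, when phl4 -Pi replicate 1 was dropped, and 19 at the highest, when phl4 +Pi replicate 3 was. The count was 14 or 15 without replicate 2 of phl4 on either medium, replicate 3 of phl4 -Pi, or Col +Pi replicate 1.

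The largest falls were in phl2 and in the libraries labelled phl3. In phl2, 79 members fell and 0 rose, next to 31.1% of all genes called, with a median of -2.05. In phl3, 64 fell and 0 rose, next to 30.8%, with a median of -1.60. By function, all 14 photosystem II and all 5 photosystem I members fell in both. The psbA level was 0.897, 1.77 and 1.19 RPKM in phl3 -Pi, against 48.2, 72.6 and 33.8 RPKM in phl3 +Pi (-4.47 ± 0.46, limma adjusted p = 5.0e-12). In phl2, psbM was at 56.4, 41.5 and 232 RPKM on -Pi and 1830.4, 1801 and 2525 RPKM on +Pi (-4.61 ± 0.86). Falls reached ribosomal genes too, such as rps14 (-3.76 ± 0.56 in phl2 and -4.42 ± 0.56 in phl3) and rpl32 (-3.88 ± 0.67 and -3.70 ± 0.67 in the same 2 lines). Mitochondrial genes moved the same way, with 29 of 54 lower in phl2 and 31 of 54 in phl3. With class as a term in the fit 48 members fell in phl2, while in phl3 22 fell and 2 rose. The part of the library class in these falls cannot be told apart from that of phosphate.

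In 4 of the 6 lines that carry phr1 together with another mutation, nearly all called members rose on -Pi, and the other 2 had calls both ways. The counts were 54 risen and 0 fallen in phr1phl1 (13.9% of all genes called), 62 and 0 in phr1phl1phl2 (14.4%), 53 and 0 in phr1phl4 (9.26%) and 29 and 2 in phr1phl1phl2phl3 (21%). In phr1phl2, 12 rose and 6 fell (22%), and in phr1phl3, 17 rose and 9 fell (24.4%), shares of members near those of all genes. With values rescaled to an equal nuclear sum those 2 splits were 10 and 8 in phr1phl2 and 11 and 9 in phr1phl3, and with class as a term they were 36 and 0 in phr1phl2 and 54 and 0 in phr1phl3. In phr1phl1phl2phl3 the count was 47 and 0 without replicate 2 of -Pi, a class 2 library, and 12 and 4 or 13 and 3 without replicate 1 or 3. The +Pi libraries of phr1phl1, phr1phl1phl2phl3 and most of phr1phl1phl2 were in class 3 and their -Pi libraries mostly in class 1. These lines had no class in common between the media. In phr1phl3 all +Pi libraries were in class 1 and all -Pi libraries in class 2. For these lines and phr1phl3 class and phosphate cannot be told apart, since the class term is set by groups of mixed class alone. With class as a term, 48 rose and 0 fell in phr1phl1, and 52 rose and 0 fell in phr1phl1phl2. In phr1phl4, 69 rose and 0 fell, and in phr1phl1phl2phl3 35 rose and 0 fell.

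**Figure D3:**
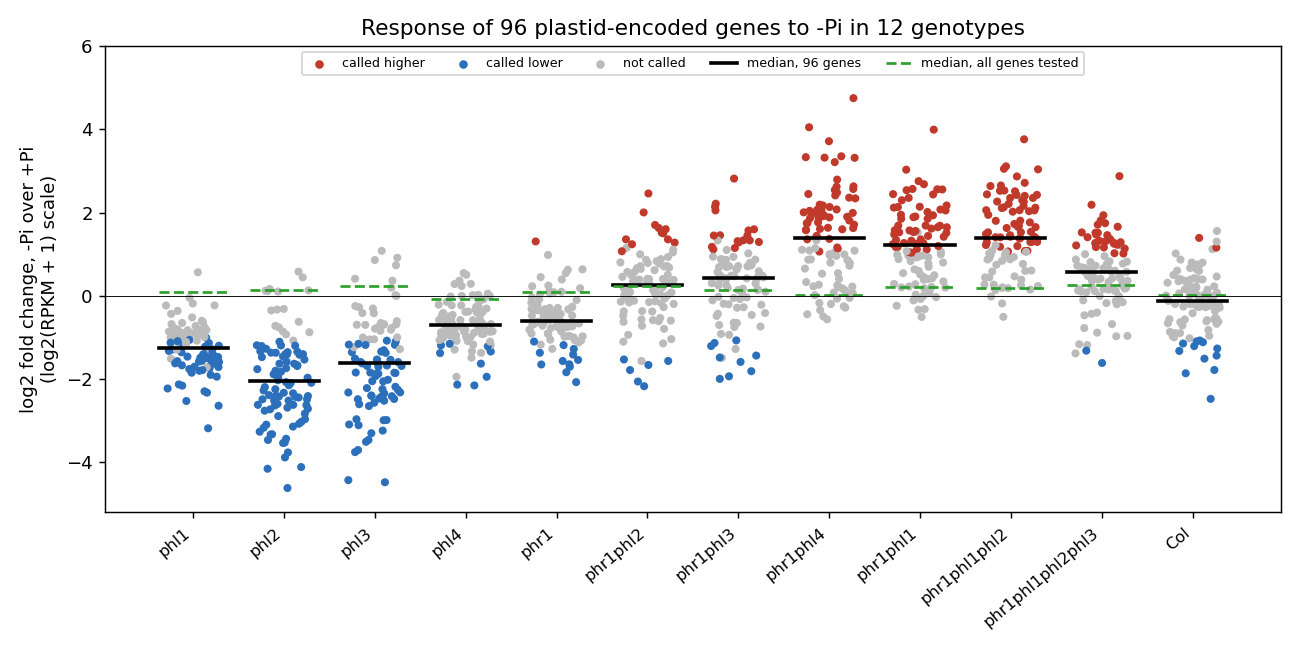
Log2 fold change of -Pi over +Pi on the log2(RPKM + 1) scale for the 96 plastid-encoded genes in 12 genotypes; each point is a gene, red was called higher and blue called lower, the black bar is the median of the 96 and the green dashed line that of all 21206 genes tested. Medians ran from -2.05 in phl2 to 1.40 in phr1phl1phl2, with Col at -0.13.

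By function, 11 of 14 photosystem II, 4 of 5 photosystem I and all 6 cytochrome b6f members rose in phr1phl4. These lines were not tested against each other. There psbA was at 351, 319.7 and 252 RPKM on -Pi, against 13.3, 9.70 and 8.69 RPKM on +Pi (4.75 ± 0.46, limma adjusted p = 1.5e-12), and rbcL was at 87.0, 83.4 and 74.9 RPKM on -Pi, against 4.47, 3.64 and 3.91 RPKM on +Pi (4.05 ± 0.33). Both were higher in every -Pi library by a wide margin. The 9 members from rpl23 to rpoA had a median change of -0.25 there, and none of them was called. In phr1phl1 and phr1phl1phl2 that same unit rose, with 7 of 9 members called at a median of 2.12 and 9 of 9 at a median of 2.40. Its rps3, a protein of the small ribosomal subunit, was at 247, 403 and 317 RPKM in phr1phl1 -Pi, against 45.2, 41.8 and 51.4 RPKM in phr1phl1 +Pi (2.75 ± 0.47). In phr1phl1phl2 it was at 403, 426 and 349 RPKM on -Pi and 37.0, 97.2 and 40.7 RPKM on +Pi (2.87 ± 0.47). On +Pi rps3 was called lower in both lines than in Col, where it stood at 63.5, 477 and 299.9 RPKM (limma adjusted p = 3.9e-04 for phr1phl1 and 0.0016 for phr1phl1phl2). Replicate 2 of phr1phl1phl2 +Pi, at 97.2 RPKM, was above Col +Pi replicate 1. All phr1phl1 +Pi libraries and replicates 1 and 3 of phr1phl1phl2 +Pi were in class 3, which held no Col library. The NDH complex had 9 of 10 members higher in both of these lines and 2 of 10 in phr1phl4.

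Set against Col, both on -Pi, lines with phr1 had mostly higher plastid levels and single phl mutants mostly lower ones or none called. All 11 comparisons share the same 3 Col libraries. Of the 96 members 18 were higher and 0 lower in phr1 (3.1% of all genes called), 53 and 0 in phr1phl1 (11.5%), 71 and 0 in phr1phl1phl2 (12.4%) and 49 and 0 in phr1phl1phl2phl3 (17.1%). The counts were 33 and 2 in phr1phl2 (14.4%), 42 and 3 in phr1phl3 (20.3%) and 55 and 2 in phr1phl4 (18.9%). Median log2 fold changes were 0.74 in phr1, 1.31 in phr1phl1, 1.65 in phr1phl1phl2, 1.24 in phr1phl1phl2phl3, 0.62 in phr1phl2, 0.99 in phr1phl3 and 1.42 in phr1phl4, where those of all genes were between 0.05 and 0.13. All libraries of Col, phr1, phr1phl1 and phr1phl1phl2 on -Pi were in class 1, so these 3 comparisons lie within 1 class. Libraries still differ within that class, where the plastid share ran from 0.319% to 1.63%. In phr1 the count was 9 without Col -Pi replicate 3 and 8 without phr1 -Pi replicate 2. The other 4 lines had -Pi libraries in class 2, and with class as a term 61 members were higher and 0 lower in phr1phl1phl2phl3, 55 and 1 in phr1phl2, 64 and 0 in phr1phl3 and 71 and 0 in phr1phl4.

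**Figure D4:**
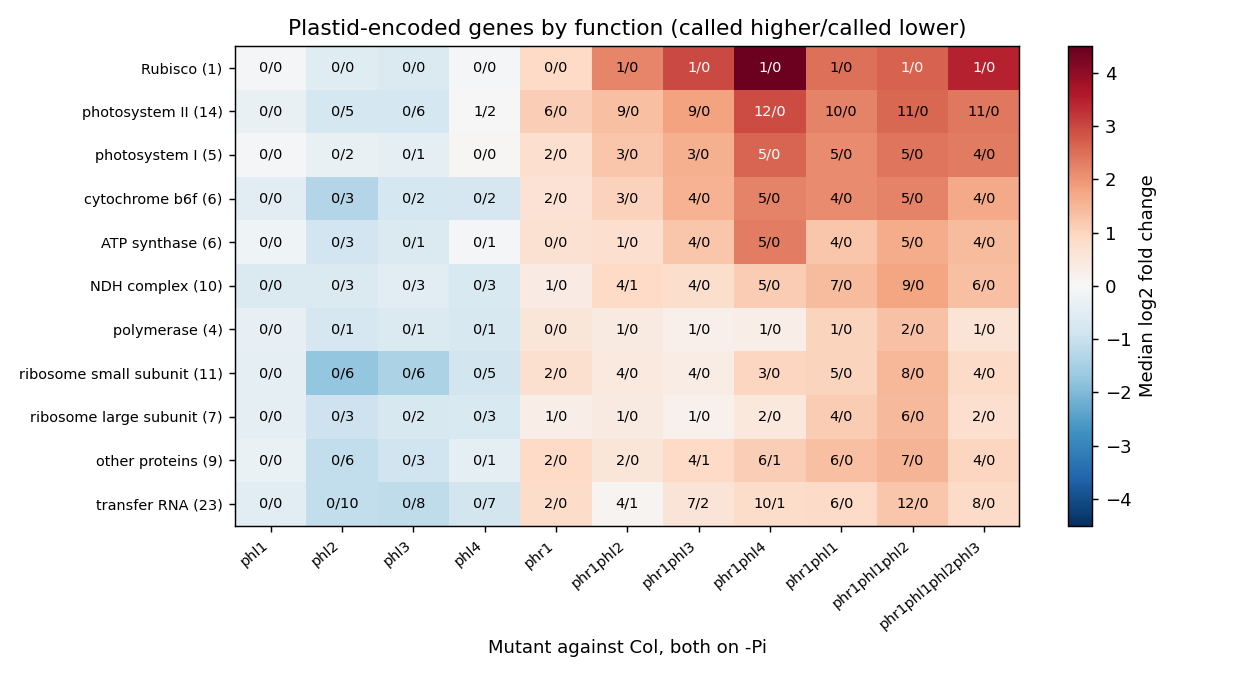
Median log2 fold change of each mutant over Col, both on -Pi, for the 96 plastid-encoded genes by function (rows, number of members in parentheses) and genotype (columns); colour gives the median and the text the number called higher and lower. In phr1phl4, 12 of 14 photosystem II members were higher and 0 lower, and in phl2 6 of 11 small ribosomal subunit members were lower and 0 higher.

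Photosynthesis genes were higher than in Col in most of the 7 lines. In photosystem II, psbA was at 19.8, 25.2 and 21.6 RPKM in phr1 -Pi and at 109, 121 and 100.05 RPKM in phr1phl1 -Pi, against 4.14, 3.78 and 3.84 RPKM in Col -Pi. The log2 fold change was 2.23 ± 0.46 in phr1 (limma adjusted p = 2.6e-04) and 4.5 ± 0.46 in phr1phl1 (adjusted p = 8.0e-12), and it ran from 2.38 in phr1phl2 to 5.96 in phr1phl4 over the other 5 lines. In photosystem I, psaA was higher by 1.28 ± 0.29 in phr1, 2.53 ± 0.29 in phr1phl1 and 3.51 ± 0.29 in phr1phl4. The Rubisco gene rbcL was called in all 6 multiple mutants, from 2.18 in phr1phl2 to 4.40 in phr1phl4, but not in phr1, where it was 0.89 ± 0.33 (adjusted p = 0.07). In the cytochrome b6f complex, petA was called in all 7 lines, from 1.18 in phr1 to 2.16 in phr1phl4. In ATP synthase, atpH was called in the 6 multiple mutants, from 2.32 in phr1phl2 to 4.12 in phr1phl4.

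Ribosome and polymerase genes were called in part. Of 11 small subunit members, 8 were higher in phr1phl1phl2, 5 in phr1phl1 and 3 in phr1phl4, and of 7 large subunit members 6, 4 and 2 in the same 3 lines. The most abundant large subunit gene, rpl16, was called in 1 of the 7 lines, phr1phl1phl2 (1.06 ± 0.28), and was 0.12 ± 0.28 in phr1phl4, and the most abundant small subunit gene, rps3, was called in none, with 0.80 ± 0.47 in phr1phl1phl2. Among polymerase genes, rpoC1 was higher in the 6 multiple mutants, from 1.24 in phr1phl3 to 2.05 in phr1phl1phl2. Its neighbours rpoB and rpoC2 were called in none, with 0.99 ± 0.31 and 0.64 ± 0.28 in phr1phl1phl2. Among other genes, matK, the plastid intron maturase, was 1.70 ± 0.37 in phr1phl1 and 1.67 ± 0.37 in phr1phl4. The carboxylase subunit accD of fatty acid synthesis was 1.35 ± 0.36 and 1.02 ± 0.36 in those lines, and the protease subunit clpP 1.16 ± 0.42 and 1.11 ± 0.42. The import gene ycf1.2 was not higher in any of the 7 lines and was lower in phr1phl3 (-1.40 ± 0.58) and phr1phl4 (-1.35 ± 0.58), with limma adjusted p = 0.035 and 0.046. These ycf1.2 calls and the rpl16 call were each lost when some single library was left out. On -Pi all phr1phl3 libraries and replicates 2 and 3 of phr1phl4 were in class 2, and those of Col in class 1.

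The gene trnF, for the phenylalanine transfer RNA, separated the -Pi libraries of lines with phr1 from all others, though narrowly. Its sequence, with no run of 5 A, is given above. It ran from 27.5 to 149 RPKM (median 72.4) in the 21 -Pi libraries of the 7 lines with phr1, and from 2.25 to 27.2 RPKM (median 6.93) in all other 51 libraries. The log2 fold change over Col on -Pi was 2.63 ± 0.47 in phr1 (limma adjusted p = 2.4e-05), 3.88 ± 0.47 in phr1phl1 and 4.45 ± 0.47 in phr1phl1phl2, and it was called in all 7 lines. In Col it was at 6.18, 3.51 and 6.34 RPKM on -Pi, against 6.93, 8.43 and 3.10 RPKM on +Pi (-0.12 ± 0.47, not called). Its reads were few, with a median of 15 and at most 267 per library.

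**Figure D5:**
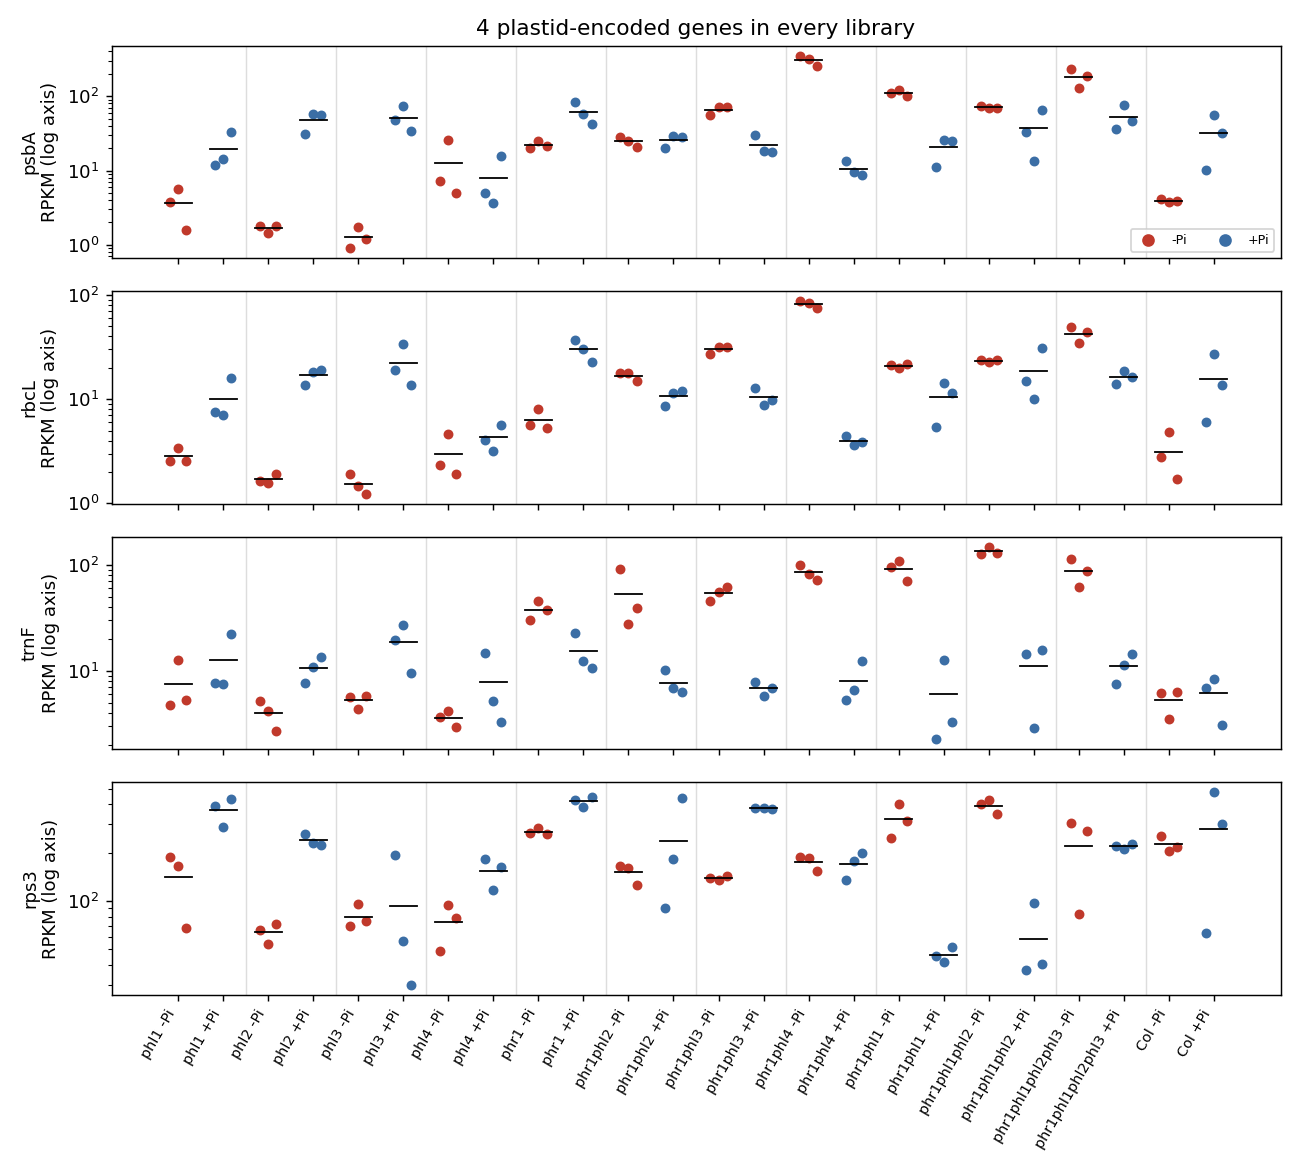
RPKM on a log axis of psbA, rbcL, trnF and rps3 in each of the 72 libraries, by group with -Pi (red) left of +Pi (blue); points are libraries and bars means of 3. For trnF the 21 -Pi libraries of lines with phr1 lay at 27.5 to 149 RPKM and all other 51 at 2.25 to 27.2 RPKM, and psbA on -Pi ran from 0.897 RPKM in phl3 to 351 RPKM in phr1phl4.

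The 21 -Pi libraries of the 7 lines with phr1 were then set against the 15 of Col and the single phl mutants, a grouping chosen after values were seen. In 16 of 96 members every library of the phr1 lines was above every other library, next to 1.81% of all genes tested. They were atpF, rpoC1, psbC, psbZ, psaB, psaA, trnF, rbcL, ycf4, petA, psbJ, psbL, rpl20, psbT, psbN and petB. In the other direction it was 0 members, next to 0.986% of all genes, and on +Pi 0 members in either direction, next to 0% of all genes higher and 0.0141% lower. Within class 1, where 13 libraries of the phr1 lines stood against 6 others, 35 members did not overlap (6.21% of all genes), and within class 2, with 8 against 9, it was 57 (10.4%). For rbcL the -Pi values ran from 5.34 to 87.0 RPKM (median 23.6) in the phr1 lines and from 1.23 to 4.84 RPKM (median 1.91) in the others. For psbA they ran from 19.8 to 351 RPKM in the phr1 lines and from 0.897 to 25.4 RPKM in the others, and the groups overlapped through 1 library, phl4 -Pi replicate 2. On +Pi the psbA ranges were 8.69 to 82.3 RPKM in the phr1 lines and 3.62 to 72.6 RPKM in the others, with medians of 27.8 RPKM in the phr1 lines and 31.7 RPKM in the others. On -Pi the plastid share was 0.357% to 1.63% (median 0.909%) in the phr1 lines and 0.150% to 0.698% (median 0.257%) in the others, while the mitochondrial share had medians of 0.531% and 0.542%. The sum of the shoot markers described below was 63.6 to 976 RPKM (median 99.1) in the phr1 lines and 17.0 to 123 RPKM (median 27.8) in the others, and its part was not tested.

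Across all 24 groups, psbA was highest in phr1phl4 -Pi (308 ± 50.6 RPKM, SD, n = 3), then in phr1phl1phl2phl3 -Pi (184 ± 51.6 RPKM), phr1phl1 -Pi (110.2 ± 10.6 RPKM) and phr1phl1phl2 -Pi (70.9 ± 2.18 RPKM). The ranges of these 4 did not overlap. From there down to phl2 -Pi each group overlapped the next, through Col +Pi (32.3 ± 22.4 RPKM) and Col -Pi (3.92 ± 0.192 RPKM) to phl3 -Pi (1.28 ± 0.442 RPKM), the lowest.

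In the single phl mutants, all but 1 of the calls against Col on -Pi were lower. In phl1, limma called 0 of 96 members (0.25% of all genes), 5 had an unadjusted p under 0.05, and limma-voom on recovered reads called 0. In phl2, 42 were lower and 0 higher (15.1%), in phl3 33 and 0 (13.8%), and in phl4 25 were lower and 1 higher (8.66%). Of the 11 small ribosomal subunit members, 6 were lower in phl2, 6 in phl3 and 5 in phl4. The large subunit gene rpl32 was at 31.7, 27.7 and 34.6 RPKM in phl2, 45.6, 47.3 and 66.3 RPKM in phl3 and 20.8, 50.5 and 68.6 RPKM in phl4, against 356, 282 and 296 RPKM in Col. All 9 mutant values were below the Col values, and the log2 fold changes were -3.27 ± 0.67 in phl2, -2.54 ± 0.67 in phl3 and -2.86 ± 0.67 in phl4 (limma adjusted p = 1.9e-04, 0.0023 and 8.0e-04). The largest fall in phl2 was in psbM (-3.43 ± 0.86). The 1 rise in phl4 was psbA, with 7.25, 25.4 and 5.0 RPKM in phl4 -Pi, where replicate 2 was high (1.15 ± 0.46, adjusted p = 0.043). All phl2, all phl3 and 2 of 3 phl4 libraries were in class 2 and those of Col in class 1. With class as a term 10 members were lower and 5 higher in phl2, 0 lower and 9 higher in phl3, and 7 lower and 3 higher in phl4, and rpl32 was -0.99 in phl3 and not called. In phl4, 17 were lower and 0 higher without Col -Pi replicate 1 or 3, and 12 lower and 1 higher without phl4 -Pi replicate 1.

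Nuclear genes for partners of the plastid-encoded proteins were measured in the same libraries, and their lists were chosen with results of these data known. Of 28 nuclear genes for subunits of the photosynthetic complexes, 0 rose and 28 fell on -Pi in Col, at a median of -3.48, and of 19 for plastid ribosomal proteins 0 rose and 17 fell. Over Col on -Pi, 8 of the 28 were higher in phr1, 26 in phr1phl1, 28 in phr1phl1phl2phl3, 28 in phr1phl4 and 22 in phl4, with 0 lower in these 5. In phl4 -Pi, of the 32 plastid-encoded members of photosystems I and II, cytochrome b6f, ATP synthase and Rubisco 1 was higher and 5 were lower. The RPKM sum of nuclear photosynthesis genes on -Pi was also above Col (37.4 to 39.99) in phl2 (85.3 to 102) and phl3 (58.3 to 71.3). In both lines all called plastid-encoded members were lower than in Col. Their -Pi libraries were all in class 2, and those of Col in class 1. With class as a term, plastid calls went both ways in phl2 and were all higher in phl3. In phl1 the sum overlapped Col, at 31.5 to 68.5 RPKM. In phr1phl1phl2, phr1phl2 and phr1phl3 the sum was above Col too, from 149 RPKM upwards. Of 21 nuclear genes of plastid transcription, such as sigma factors and phage-type polymerases, 6 were higher in phr1phl1 and 8 in phr1phl4. The shares of all genes called there, in either direction, were 11.5% and 18.9%.

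Markers of shoot tissue were measured beside these genes. Of 14 shoot markers, 7 passed the filter, and 7 were under 1 RPKM in every library, namely the leaf polarity genes FIL, YAB3 and YAB5 and the stomatal genes SPCH, MUTE, FAMA and TMM. Of the 7 that passed, 5 were genes of light-harvesting antenna proteins and 2, PDF1 and CER1, are epidermal. Among the antenna genes LHCB1.3 alone reached up to 766 RPKM. The sum of all 14 ran from 906 to 976 RPKM in phr1phl4 -Pi, from 63.6 to 70.2 in phr1 -Pi and from 71.3 to 86.8 in phr1phl1 -Pi, against 22.3 to 26.3 RPKM in Col -Pi. It was 149 to 264 RPKM in Col +Pi and 92.6 to 123 RPKM in phl4 -Pi. On +Pi it was lower in phr1phl4 (254 to 297 RPKM) and phr1phl1 (60.9 to 69.4 RPKM) than in the same lines on -Pi. It was higher on +Pi in phr1 (114 to 132 RPKM) and phl4 (136 to 208 RPKM). In phr1phl1phl2phl3 the media overlapped, at 160 to 238 RPKM on -Pi and 180 to 196 RPKM on +Pi. In phr1phl1phl2, where 62 members rose, it was 64.5, 69.2 and 290.5 RPKM on -Pi, with replicate 3 apart, against 359 to 432 RPKM on +Pi. It was 99.1 to 109 RPKM in phr1phl3 -Pi, against 120.0 to 129 RPKM in phr1phl3 +Pi, and 68.4 to 133 RPKM in phr1phl2 -Pi, against 120.2 to 156 RPKM in phr1phl2 +Pi. Root markers summed to between 3517 and 11874 RPKM in every library. In phr1phl4 they were at 3517 to 4464 RPKM on -Pi and 7743 to 9184 RPKM on +Pi. Col -Pi had 6406 to 6942 RPKM. Similar sums to those of phr1phl4 -Pi occurred in other groups, such as phr1phl3 -Pi (3851 to 4092 RPKM) and phl3 +Pi (3983 to 4569 RPKM). The part of shoot-marker RNA in the plastid results was not tested, and in such whole roots a change in the number of green cells and a change in RNA per cell cannot be told apart.

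Tests of whether a mutant responded to -Pi as Col did gave calls in both directions. All 11 tests share the Col libraries, and 0 members were called in phr1, as given above. Called differences were all upwards in phr1phl1 (47 members, with 17.8% of all genes called), phr1phl1phl2 (51, 16.4%) and phr1phl4 (42, 14.9%). In 3 lines both directions occurred and the share of members was near that of all genes, namely phr1phl1phl2phl3 (30 up and 4 down, 30.3%), phr1phl2 (20 up and 7 down, 30.2%) and phr1phl3 (25 up and 8 down, 34.7%). All were downwards in phl2 (59, 35.1%), phl3 (44, 32.7%) and phl1 (21, 8.76%), and in phl4 5 were up and 6 down (9.97%). With class as a term 9 were down in phl2, while in phl3 1 was up and 0 down and in phl1 0 were up and 1 down. For psbA the difference in phr1phl4 was 7.22 ± 0.65 and in phr1phl1 4.91 ± 0.65 on the log2 scale (limma adjusted p = 2.1e-13 and 2.2e-08). Without Col +Pi replicate 1, 0 members differed in phl1, 36 in phl2, 21 in phl3 and 7 in phl4, and without Col +Pi replicate 2 the count was 43 in phl1, 28 in phr1phl1 and 27 in phl4. The phl1 count was also 0 without phl1 -Pi replicate 3, and lay between 8 and 12 without Col -Pi replicate 1 or 3 or phl1 +Pi replicate 1 or 3. The phl4 count was 6 without replicate 1 of phl4 on either medium, 18 without phr1phl1phl2phl3 -Pi replicate 2 and 22 without phl4 +Pi replicate 3.

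On +Pi the calls against Col changed with single libraries. Summed over 11 comparisons there were 110 member calls, next to 6% of all gene tests called, and 33 of them were rises in phr1. It was 79 without phr1 +Pi replicate 1, 86 without Col +Pi replicate 1, 359 without Col +Pi replicate 2, and 45 with class as a term. In phr1, photosystem II had 9 of 14 members higher. The phr1 values overlapped those of Col for psbA, which was not called, with 82.3, 57.9 and 41.9 RPKM in phr1 +Pi, against 10.1, 55.0 and 31.7 RPKM in Col +Pi (1.12 ± 0.46, limma adjusted p = 0.085). Without Col +Pi replicate 1 the 33 became 0, and without phr1 +Pi replicate 1 they became 3. In phr1phl4 and phl4, rbcL was lower, at 4.47, 3.64 and 3.91 RPKM in phr1phl4 and 4.08, 3.20 and 5.63 RPKM in phl4, against 6.0, 27.0 and 13.6 RPKM in Col (-1.51 ± 0.33 and -1.45 ± 0.33). All 6 of these values were below all 3 of Col +Pi. The phr1phl4 call held whichever library was left out, but the phl4 call was lost without Col +Pi replicate 2, and with the compared groups alone 0 members were called in phl4.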

How the data were processed

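Messenger RNA of roots was sequenced in 72 libraries, 3 for each of 12 genotypes on 2 media. The authors deposited 1 table of RPKM values per gene. TopHat, edgeR and TAIR10 are named in the submitters' processing notes without version, and the labels' protocols give oligo(dT) selection. Further steps are not given in the sources used here.

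Plastid rows were kept at 1 RPKM or more in 3 or more libraries, which is also the filter for all 21206 genes tested. The test was limma 3.58.1 (R 4.3.3) on log2(RPKM + 1), with 24 group means, an intensity trend, robust variance estimates and Benjamini-Hochberg adjustment within each comparison. Fold changes on this scale understate changes of low genes. The script was tested on simulated data. Sums and figures used Python 3.11.15. Members, lists and library classes were chosen with earlier results of these data known. Genes named in the text were, by rule, the highest of each function and its extremes in Col, the called extremes of every other comparison and a set of core genes. Others were picked after their values were seen.

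Since RPKM values step in whole reads, depth could be recovered. Whole reads came out for 100% of the tested genes (tolerance 0.002), with 7340 to 133029 plastid reads per library, and limma-voom on these reads called 4453 genes in the Col response. Intervals and p-values cover the spread between libraries as deposited. Library classes came from k-means (3 classes, 50 starts) on slopes of 9216 nuclear genes on length, GC and adenine content. Names and sequences were matched to RefSeq TAIR10.1, where gene lengths equalled those recovered for 92 of 96 members. TAIR10.1 is not named as the authors' build, so no coordinates are given. Alternatives were another pseudocount, no filter, 2 scalings, the compared groups alone, a replicate block, class as a term, and each library left out in turn. The voom fit, the class 1 and majority-class subsets and the grouping by phr1 were added after seeing the data.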

Additional observations from a re-analysis of the deposited data

Results flagged for a closer look

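Each of the following is a difference between a mutant's response to -Pi and that of Col, tested as an interaction in limma over all genes with an adjusted p, and all of them share the Col libraries. The number of members with a called difference was 47 in phr1phl1, 51 in phr1phl1phl2, 34 in phr1phl1phl2phl3, 27 in phr1phl2, 33 in phr1phl3, 42 in phr1phl4, 21 in phl1, 59 in phl2, 44 in phl3 and 11 in phl4. The share of all genes called was 17.8% in phr1phl1, 16.4% in phr1phl1phl2, 30.3% in phr1phl1phl2phl3, 30.2% in phr1phl2, 34.7% in phr1phl3, 14.9% in phr1phl4, 8.76% in phl1, 35.1% in phl2, 32.7% in phl3 and 9.97% in phl4. With class as a term the count was 9 in phl2 and 1 each in phl3 and phl1, and with the compared groups alone it was 0 in phl1 and in phl4.

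For psbA the difference on the log2 scale, mutant minus Col, was 4.91 in phr1phl1, 3.65 in phr1phl1phl2, 4.28 in phr1phl1phl2phl3, 2.43 in phr1phl2, 4.04 in phr1phl3 and 7.22 in phr1phl4. It was 2.98 in phl4, -1.68 in phl2 and -2.0 in phl3. For rbcL it was 2.89 in phr1phl1, 2.33 in phr1phl1phl2, 3.18 in phr1phl1phl2phl3, 2.48 in phr1phl2, 3.31 in phr1phl3 and 5.91 in phr1phl4. It was 1.40 in phl4 and -1.25 in phl3. Without Col +Pi replicate 1 the psbA calls in phl2 and phl3 and the rbcL call in phl3 were lost, and without Col +Pi replicate 2 the rbcL call in phl4 was. The psbA call in phl2 was also lost without phl2 +Pi replicate 2 or 3, the rbcL call in phl3 without phl3 +Pi replicate 2 or Col -Pi replicate 2, and the rbcL call in phl4 without Col -Pi replicate 3 or replicate 2 of phl4 on either medium. The other psbA and rbcL calls held whichever library was left out. The part of the library classes in these differences was not tested beyond the fits with class as a term.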

How the results depend on the processing

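The members called in the Col response numbered 14, and 3 with the compared groups alone, 34 with class 1 libraries alone and 33 with the majority class of each group. Leaving out 1 library gave 8 (without Col -Pi replicate 3) to 28 (without Col +Pi replicate 1). The 110 calls on +Pi became 12 with the compared groups alone, 45 with class as a term and 171 with voom, and 79 to 359 with 1 library left out. The 369 differences in response became 218 with the compared groups alone. The cause of these shifts was not tested. Over left-out libraries they ran from 323 to 410, the 461 calls in the mutants' responses from 436 to 493 and the 429 calls against Col on -Pi from 369 to 462, all within 1.5 times. The Col response of rpoB ran from -0.83 to 0.18 and that of accD from -0.97 to 0.0099, both reversed without Col +Pi replicate 2. That of psaA was not called with the compared groups alone (-1.43) or without Col +Pi replicate 2 (-0.97).

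Of 1383 member calls over all comparisons, class as a term kept 929 and turned the sign of 33, and the majority class kept 1177 and turned 2. Voom kept 1285, an equal nuclear sum 1277, median ratio scaling 1283, a pseudocount of 0.1 kept 1279, and the compared groups alone 1020, each with 0 signs turned. The 2 scalings shifted the median of all genes by -0.33 to 0.16 and by -0.21 to 0.12. They moved the split of higher and lower calls in phr1phl2 on +Pi from 1 and 1 to 3 and 0 with an equal nuclear sum, and to 3 and 1 with median ratio scaling. The split of the phl4 difference became 4 and 8 with an equal nuclear sum, and that of phr1phl1phl2 on +Pi 1 and 4 with median ratio scaling.

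Replicate numbers did not pair samples, since deviations of same-numbered samples had a mean correlation of -0.0096 and 2 of 34 comparisons had every pair over 0.1. With the number as a replicate block the counts were 13 in Col, 462 in the mutants' responses, 427 against Col on -Pi, 109 on +Pi and 365 for the differences.

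Few reads limit single genes such as trnE and trnF, and the spread of plastid values limits every comparison with 3 libraries. Oligo(dT) selection means that levels are those of retained RNA.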
